A study of Mus musculus with 3 samples.

Results

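The genes described here encode the mitochondrial carrier family and the protein import machinery of mitochondria. They were chosen by a rule on gene symbols, which was set with earlier results of these data known. The rule took every listed gene whose symbol begins with Slc25a, Timm or Tomm and a number, or is Ucp1, Ucp2 or Ucp3. It was met by 71 of the 16129 listed genes. Of these, 47 encode carriers and 24 encode import components. Of 75 protein-coding genes with such symbols in RefSeq, Slc25a21, Slc25a48, Tomm20l and Ucp1 are absent from the list and not analysed here. RNA was sequenced from type 2 innate lymphoid cells (ILC2s), lymphocytes of barrier tissues that make type 2 cytokines, sorted by flow cytometry from digested lungs of wild-type mice. All mice had received the alarmin IL-33 in vivo, and there was 1 group of 3 libraries, replicates 1 to 3, with no untreated cells. The labels used here give no age, sex or dose and do not state whether each library came from its own animal, so the spread between libraries may be technical.

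Mitochondrial carriers are proteins of the inner membrane, most of which exchange a metabolite in the matrix for another outside. They share a fold built of repeated domains, and they supply the matrix with ADP, phosphate, carboxylates, amino acids and cofactors. Nearly all mitochondrial proteins, the carriers included, are made in the cytosol. They enter through the TOM complex of the outer membrane and are then passed to TIM23, which serves proteins with a cleavable presequence, or by small TIM chaperones to TIM22, which inserts the carriers.

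The libraries held between 19883728 and 19976129 estimated reads. The 8 ILC2 markers examined, among them Gata3 and Il1rl1, averaged between 199 and 1064 TPM. Summed macrophage markers came to 391.86, 383.79 and 536.94 TPM in replicates 1, 2 and 3, of which Chil3 supplied 337.6, 326.62 and 461.15 TPM. Lyz2 was at 33.1, 37.37 and 46.75 TPM, and C1qa, C1qb, C1qc and Cd68 averaged between 3.99 and 5.83 TPM, each highest in replicate 3. Of the 10 listed macrophage markers 8 reached 1 TPM in all libraries, and Adgre1 and Siglecf were below 1 TPM in all. Of 15 markers of other cells, 5 reached 1 TPM in all libraries, namely Pecam1 at 79.8, Scgb1a1 at 15.3, Sftpc at 9.40, Cd3e at 7.19 and Hba-a1 at 3.56 TPM on average. The 15 markers summed to 121.34, 119.32 and 121.43 TPM, of which Pecam1 supplied 81.78, 76.62 and 80.88 TPM. Cdh5, of the same list, was at 0.29, 0.27 and 0.11 TPM. In bulk libraries, fewer cells that express a gene and less RNA per cell cannot be told apart.

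Transcripts of most of these genes were found in the libraries of sorted ILC2s. A total of 60 of 71 reached 1 TPM (a level scaled to the library and to transcript length) in all 3 libraries, which is 84.5%, against 67.3% of all listed genes. Markers of other cells, such as Sftpc, also reached this level, so it does not show which cells made a transcript. A further 10 were below 1 TPM in all libraries, against 30.0% of all listed genes, and Slc25a43 passed 1 TPM in replicate 3 only. A mean of at least 10 TPM was found for 50 members (70.4%, against 51.2% of all listed genes), and a mean of at least 100 TPM for 6 (8.45%, against 10.3%). The median of the members' mean levels was 30.6 TPM, beside 11.2 TPM over all listed genes. Together the 71 genes took 0.563%, 0.5585% and 0.580% of all TPM in replicates 1, 2 and 3.

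Carrier transcripts were concentrated in a few genes, since Ucp2, Slc25a3, Slc25a5 and Slc25a4 made up 74.1% ± 0.199 (SD, n = 3) of the summed carrier TPM, and Ucp2 alone 31.5% ± 0.496. The 4 highest import genes, Tomm22, Timm23, Tomm5 and Tomm6, made up 39.9% ± 0.476 of the summed import TPM. These top 4 sets stand against unlike totals, 47 carriers and 24 import genes. Much transcript sequence of Timm23, Tomm6 and Slc25a5 is shared with other genes, as given below, so both percentages are less certain than their SDs. The mean levels of carriers lay between 0.0233 and 1374 TPM with a median of 21.7 TPM, and those of import genes between 0.0967 and 186 TPM with a median of 48.1 TPM.

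**Figure D1:**
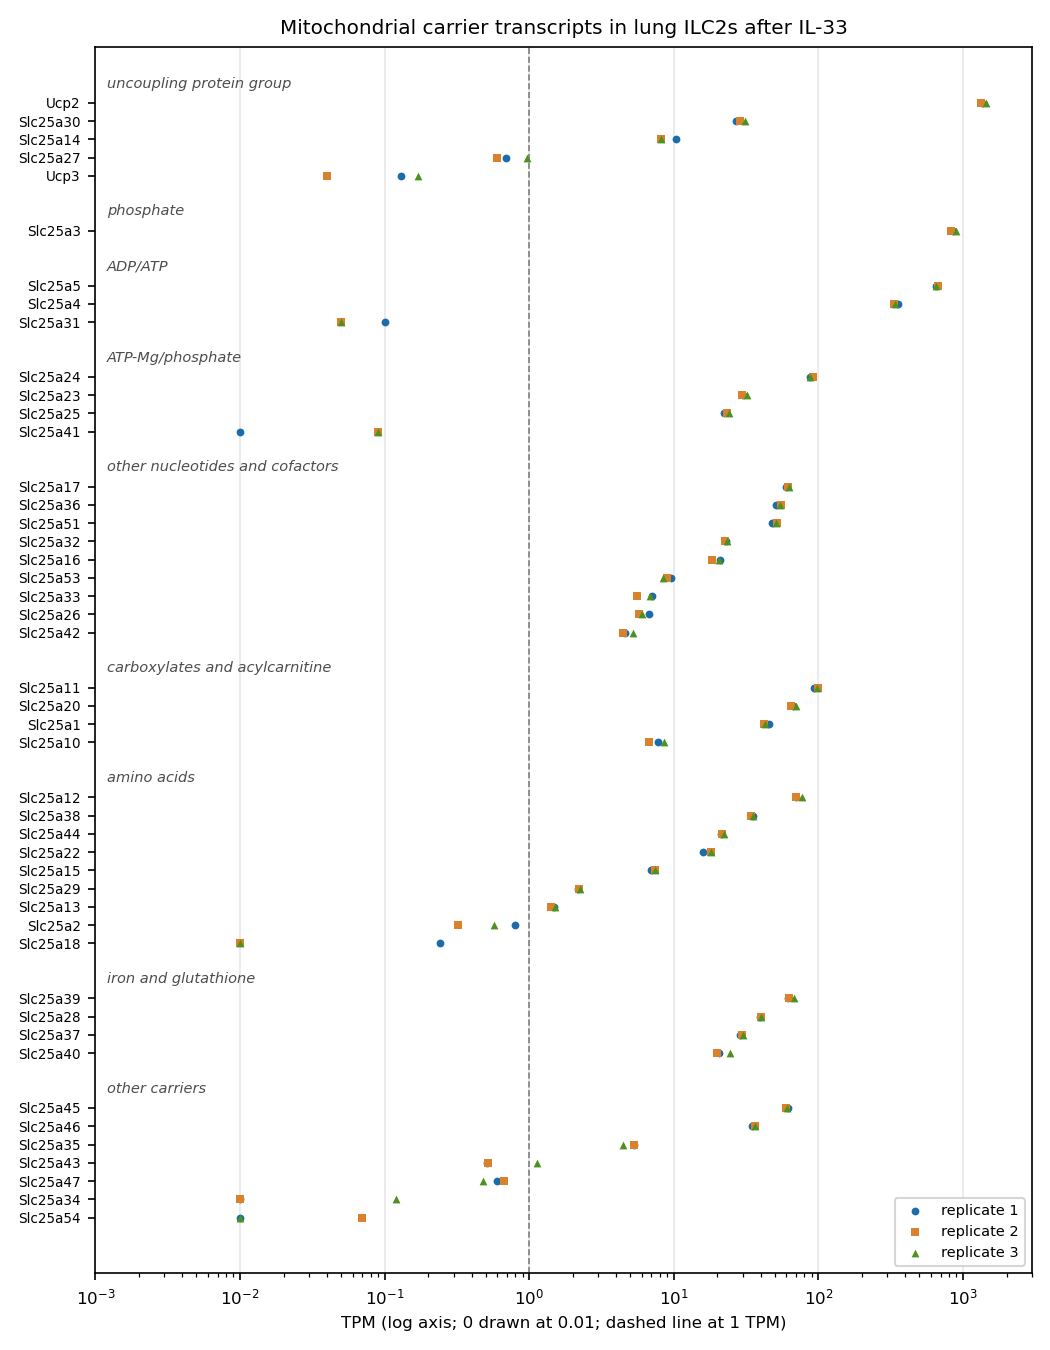
Levels of 46 carrier genes in TPM on a log axis, by substrate group, with 1 point for each of the 3 libraries and values of 0 drawn at 0.01. Ucp2, Slc25a3, Slc25a5 and Slc25a4 lie to the right of the others at 334 TPM or more, and 9 carriers lie left of the dashed line at 1 TPM in all libraries.

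Ucp2 had the highest level of all members. It encodes uncoupling protein 2, a carrier of many immune cells whose transport activity in cells is still debated, and it stood at 1347.89, 1336.55 and 1437.72 TPM in replicates 1, 2 and 3. This placed it 103rd of all listed genes at 1374 ± 55.4 TPM (SD, n = 3). Its highest value was in replicate 3, as for 24 of 50 members and 41.2% of all listed genes that averaged 10 TPM or more. That library also had the highest summed macrophage markers, whose part in the level of Ucp2 was not tested. The gene (Entrez 22228) lies on chromosome 7 from 100493337 to 100499629 in GRCm38.p6. An exon of Dnajb13, listed at 45.95, 43.46 and 40.79 TPM, overlaps it on the opposite strand in GENCODE, and since strand-specific counting is not stated, reads in the overlap cannot be told apart. Such opposite-strand overlaps were annotated for 22 of the 71 members, among them Slc25a11, Slc25a18, Timm8b, Tomm40, Tomm40l and Tomm70a.

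Ucp3, the uncoupling protein of skeletal muscle, was near 0 at 0.13, 0.04 and 0.17 TPM, from 3, 1 and 3.96 estimated reads. Ucp2 exceeded it by a log2(TPM + 1) difference of 10.27 ± 0.054 in 3 of 3 libraries. These genes are neighbours, with 6904 bases between them. Their promoter windows (250 bases before to 50 bases after the annotated start, from RefSeq, GRCm38.p6, + strand) are shown because they belong to adjacent paralogs at opposite ends of the range. Capitals mark CG pairs, of which the window of Ucp2 (chr7:100493108-100493407) holds 21 and that of Ucp3 (chr7:100472741-100473040) holds 5.
Ucp2: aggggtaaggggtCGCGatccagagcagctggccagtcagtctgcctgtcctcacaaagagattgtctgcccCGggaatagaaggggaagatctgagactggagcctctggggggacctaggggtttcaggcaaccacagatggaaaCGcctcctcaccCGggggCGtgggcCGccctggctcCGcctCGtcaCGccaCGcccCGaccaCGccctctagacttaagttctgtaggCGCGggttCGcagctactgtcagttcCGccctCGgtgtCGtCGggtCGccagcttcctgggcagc
Ucp3: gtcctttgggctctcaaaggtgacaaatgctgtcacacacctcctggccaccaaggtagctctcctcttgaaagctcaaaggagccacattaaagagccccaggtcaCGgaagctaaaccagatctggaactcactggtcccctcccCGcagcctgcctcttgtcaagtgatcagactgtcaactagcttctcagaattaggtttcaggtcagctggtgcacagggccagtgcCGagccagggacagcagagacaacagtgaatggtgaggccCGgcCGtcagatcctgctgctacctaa

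The other relatives of the uncoupling proteins lay far below Ucp2. Slc25a30, first described in kidney, was at 26.93, 28.47 and 31.24 TPM, and Slc25a14, also called UCP5, at 10.42, 8.13 and 8.11 TPM. Slc25a27, the brain-enriched UCP4, was at 0.69, 0.6 and 0.96 TPM, below 1 TPM in all libraries. These levels came from 41.87, 48.05 and 52.88 estimated reads, so the transcript was low but not absent. The ranges of these 3 genes did not overlap.

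The carriers that serve ATP synthesis followed Ucp2. Slc25a3, which brings phosphate into the matrix, was at 847.2, 831.15 and 894.01 TPM (857 ± 32.7, SD, n = 3), and lies on chromosome 10 from 91116574 to 91124046. The ADP/ATP carriers exchange cytosolic ADP for matrix ATP. Slc25a5 (ANT2, the form of dividing cells, on chromosome X from 36795597 to 36798808) was at 649.64, 666.31 and 654.14 TPM. Slc25a4 (ANT1, the form of heart and muscle, on chromosome 8 from 46207168 to 46211062) was at 356.08, 334.45 and 337.13 TPM. The libraries did not overlap between these genes, and Slc25a5 exceeded Slc25a4 by a log2(TPM + 1) difference of 0.94 ± 0.065 (1.92-fold) in 3 of 3 libraries. It made up 65.7% ± 1.02 of the summed ADP/ATP carrier TPM. Of the 50-base words of Slc25a5 transcripts, 46.6% also occur in transcripts of other genes, mostly pseudogenes, so its level is less certain than that of Slc25a4.

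Slc25a31, the ADP/ATP carrier of male germ cells (ANT4), was at 0.1, 0.05 and 0.05 TPM from 2, 1 and 1 estimated reads. The promoter windows of the most and least abundant ADP/ATP carrier are shown because the gene near 0 has the higher CG content of the pair. Capitals mark CG pairs, 18 in Slc25a5 (chrX:36795347-36795646, + strand) and 22 in Slc25a31 (chr3:40708621-40708920, + strand).
Slc25a5: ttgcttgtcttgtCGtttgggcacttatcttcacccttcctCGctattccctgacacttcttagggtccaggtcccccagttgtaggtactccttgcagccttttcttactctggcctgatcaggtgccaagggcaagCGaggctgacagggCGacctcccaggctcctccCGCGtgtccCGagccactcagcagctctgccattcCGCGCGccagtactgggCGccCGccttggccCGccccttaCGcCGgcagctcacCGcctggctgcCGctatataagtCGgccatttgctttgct
Slc25a31: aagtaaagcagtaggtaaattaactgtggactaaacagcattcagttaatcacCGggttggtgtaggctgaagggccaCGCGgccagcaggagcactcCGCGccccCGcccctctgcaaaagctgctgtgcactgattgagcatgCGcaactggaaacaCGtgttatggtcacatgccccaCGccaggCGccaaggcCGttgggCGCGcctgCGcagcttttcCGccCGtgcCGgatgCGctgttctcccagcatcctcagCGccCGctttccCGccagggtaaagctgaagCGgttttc

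The ATP-Mg/phosphate carriers adjust the adenine nucleotide pool of the matrix and respond to calcium in most forms. Slc25a25 was at 22.22, 23.42 and 24.05 TPM, against 87.39, 91.41 and 87.49 TPM for Slc25a24, a log2(TPM + 1) difference of -1.89 ± 0.060 in 3 of 3 libraries. Slc25a23 lay between them at 30.17, 29.41 and 32.11 TPM, with no overlap between the 3 genes. Slc25a41, which lacks the calcium-binding part, was at 0, 0.09 and 0.09 TPM from 0, 1 and 1 estimated reads.

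Slc25a54, the neighbour of Slc25a24, was listed at 0, 0.07 and 0 TPM, the lowest mean of all members, from 1 estimated read in 1 library. Their windows are shown because the adjacent genes differ in level while their CG content is close. Slc25a24 (chr3:109122899-109123198, + strand) holds 19 CG pairs and Slc25a54 (chr3:109080249-109080548, + strand) holds 15, marked by capitals.
Slc25a24: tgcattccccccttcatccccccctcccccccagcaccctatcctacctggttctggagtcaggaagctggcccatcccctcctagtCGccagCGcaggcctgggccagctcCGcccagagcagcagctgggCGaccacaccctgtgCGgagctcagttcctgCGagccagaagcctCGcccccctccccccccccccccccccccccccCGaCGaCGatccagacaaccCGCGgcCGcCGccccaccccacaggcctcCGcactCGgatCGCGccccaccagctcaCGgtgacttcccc
Slc25a54: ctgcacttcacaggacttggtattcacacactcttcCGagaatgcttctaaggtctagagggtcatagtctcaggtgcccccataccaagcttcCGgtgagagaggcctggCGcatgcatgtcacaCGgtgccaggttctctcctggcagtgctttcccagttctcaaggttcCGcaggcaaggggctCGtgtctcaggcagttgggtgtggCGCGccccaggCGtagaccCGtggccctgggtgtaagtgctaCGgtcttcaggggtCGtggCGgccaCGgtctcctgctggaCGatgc

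All 10 genes grouped as carriers of other nucleotides and cofactors were detected, a grouping that does not establish the substrate of each. Among those described here were Slc25a17, a carrier of peroxisomes (59.81, 61.78 and 63.06 TPM), and Slc25a36, a pyrimidine nucleotide carrier (50.98, 55.25 and 54.26 TPM). Slc25a51, which imports NAD+, followed at 49.95 ± 2.19 TPM. Slc25a36 exceeded Slc25a33, the other pyrimidine nucleotide carrier (7.03, 5.56 and 6.89 TPM), by a log2(TPM + 1) difference of 2.87 ± 0.209 in 3 of 3 libraries, or by 3.98 without division by length. The folate carrier Slc25a32 was at 23.05 ± 0.43 TPM and Slc25a16, linked to coenzyme A, at 19.9 ± 1.34 TPM. Slc25a53 was at 8.97 ± 0.567 TPM, Slc25a26, which imports the methyl donor S-adenosylmethionine, at 6.15 ± 0.513 TPM, and the coenzyme A carrier Slc25a42 at 4.76 ± 0.444 TPM.

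Among carboxylate carriers, Slc25a11, the oxoglutarate/malate carrier of the malate-aspartate shuttle, was the highest at 93.4, 98.69 and 97.46 TPM. Slc25a20, which imports acylcarnitines for fatty acid oxidation, was at 66.36, 65.05 and 70.52 TPM. Slc25a1, the citrate exporter that supplies cytosolic acetyl-CoA, was at 45.55, 42.26 and 42.86 TPM, and the dicarboxylate carrier Slc25a10 at 7.72, 6.73 and 8.53 TPM. The libraries of these 4 genes did not overlap.

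Close relatives among the amino acid carriers stood at unlike levels. Slc25a12 (aralar) and Slc25a13 (citrin, the main form of liver) both export aspartate for the malate-aspartate shuttle. Slc25a13 was at 1.49, 1.41 and 1.51 TPM, against 69.63, 69.94 and 76.68 TPM for Slc25a12, a log2(TPM + 1) difference of -4.89 ± 0.063 in 3 of 3 libraries. The glutamate carrier Slc25a22 was at 15.94, 18.06 and 18.18 TPM, and its relative Slc25a18 was listed at 0.24, 0 and 0 TPM, from 3 estimated reads in replicate 1. Their difference of 4.10 ± 0.28 on the log2(TPM + 1) scale became 6.86 with a pseudocount of 0.1, since Slc25a18 was near 0.

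The mitochondrial glycine carrier Slc25a38, needed for haem synthesis, was at 35.51, 34.39 and 35.08 TPM, and Slc25a44, a carrier of branched-chain amino acids, at 21.11, 21.53 and 22.33 TPM. The ornithine carrier Slc25a15 was at 7.23 ± 0.231 TPM and Slc25a29, which carries basic amino acids, at 2.21 ± 0.0503 TPM. Slc25a2, a relative of the ornithine carrier, was at 0.8, 0.32 and 0.57 TPM.

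All 4 iron and glutathione carriers were detected. Slc25a37 (mitoferrin 1, the form of red cell precursors) was at 28.63, 29.49 and 30.06 TPM, against 39.37, 40.26 and 39.81 TPM for Slc25a28 (mitoferrin 2, the widespread form). The log2(TPM + 1) difference was -0.43 ± 0.028 in 3 of 3 libraries, and it turned to 1.22 when reads were not divided by transcript length. Slc25a39, which imports glutathione, was at 61.59, 62.98 and 67.83 TPM and exceeded its relative Slc25a40 (20.53, 19.99 and 24.6 TPM) by 1.52 ± 0.091, or by 0.80 without division by length.

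Of the remaining 7 carriers, Slc25a45 was at 61.84, 60.15 and 60.62 TPM and Slc25a46, an outer membrane protein of mitochondrial dynamics, at 34.84, 36.54 and 36.38 TPM. Slc25a35 was at 5.33, 5.33 and 4.47 TPM, Slc25a43 at 0.51, 0.52 and 1.14 TPM and Slc25a47, a carrier of liver, at 0.6, 0.67 and 0.48 TPM. Slc25a34 was listed at 0, 0 and 0.12 TPM. All libraries of Slc25a45 and Slc25a46 lay above those of the other 5.

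The import machinery was detected almost in full, at 23 of 24 genes, against 67.3% of all listed genes. These 23 averaged 12.2 TPM or more. All 8 listed TOM genes were detected. Tomm22, the central receptor and organiser of the complex (chromosome 15 from 79670868 to 79672862), was the highest at 187.09, 183.15 and 189.19 TPM. The pore gene Tomm40 was at 46.45, 48.04 and 49.29 TPM. The small subunit genes Tomm5, Tomm6 and Tomm7 were at 80.4 ± 5.48, 75.7 ± 3.73 and 48.3 ± 5.69 TPM. Of the 50-base words of Tomm6, 75.9% also occur in the overlapping gene Gm21981, which leaves its level uncertain. The libraries of Tomm22 lay above those of all other import genes except Timm23, and above those of Timm23 by a narrow margin.

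**Figure D2:**
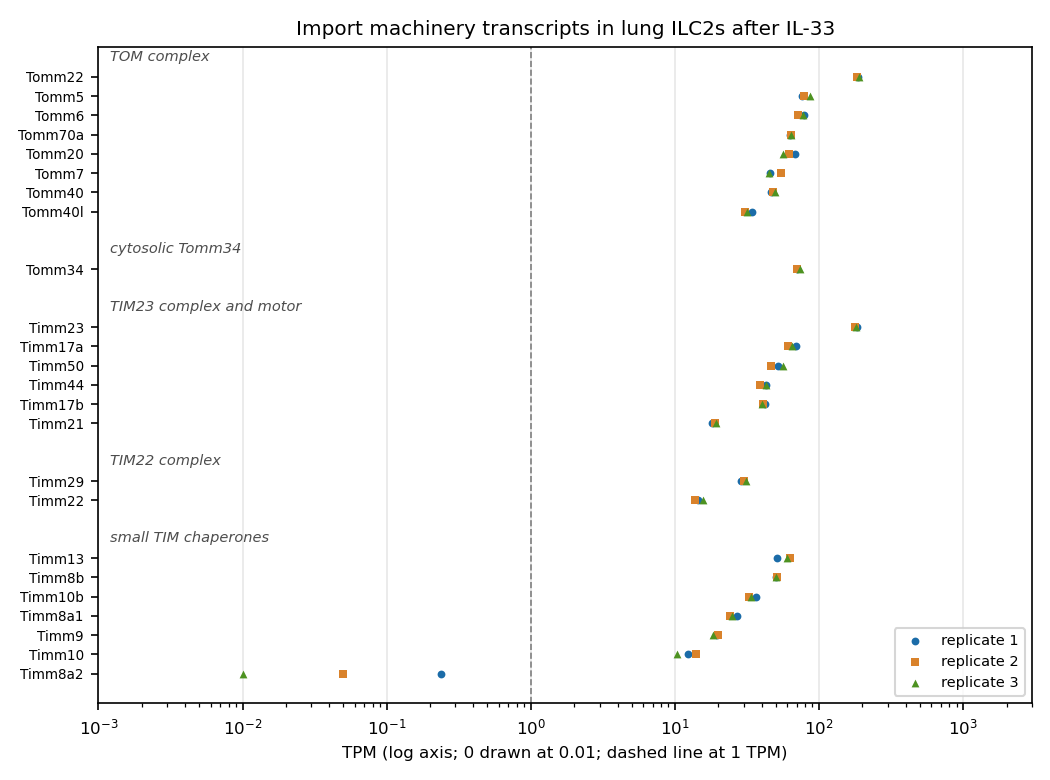
Levels of the 24 import machinery genes in TPM on a log axis, grouped by complex, with 1 point for each of the 3 libraries and a value of 0 drawn at 0.01. All genes but Timm8a2 lie at 10 TPM or more in every library.

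The TOM receptors Tomm20, which binds presequences, and Tomm70a, which binds carriers and other proteins with internal signals, were not separated. Tomm20 was at 68.1, 61.79 and 56.06 TPM, and Tomm70a at 62.53, 64.31 and 63.99 TPM. Their log2(TPM + 1) difference of -0.041 ± 0.155 was smaller than its SD, had its sign in 2 of 3 libraries, and was 0.36 without division by length. Tomm40 exceeded its relative Tomm40l (34.22, 30.48 and 31.45 TPM) by 0.57 ± 0.119 in 3 of 3 libraries, but lay below it by a difference of -0.29 without division by length. Tomm34, a cytosolic co-chaperone, was at 70.76, 70.72 and 74.3 TPM.

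Timm23, the channel gene of TIM23 (chromosome 14 from 32180166 to 32201891), led the inner membrane genes at 182.03, 176.76 and 179.33 TPM. Of its 50-base words 83.9% also occur in other genes, the largest such share among the members, so its level is uncertain. Its channel partners Timm17a and Timm17b are alternatives in the same complex. Timm17a was at 69.01, 61.31 and 64.81 TPM and exceeded Timm17b (42.3, 40.62 and 40.28 TPM) by 0.65 ± 0.059 in 3 of 3 libraries, but lay below it by -0.26 without division by length. The receptor gene Timm50 was at 51.64, 46.74 and 56.44 TPM, Timm44, the anchor of the import motor, at 41.5 ± 2.29 TPM, and Timm21 at 18.8 ± 0.594 TPM.

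The TIM22 genes lay below Timm23, but not below all genes of its complex, since Timm29 exceeded Timm21 in every library. Timm22, the channel gene that inserts carriers, was at 14.35, 13.81 and 15.6 TPM, and Timm29, a subunit described in human cells, at 28.68, 30.25 and 31.33 TPM. Timm23 exceeded Timm22 by a log2(TPM + 1) difference of 3.53 ± 0.080 in 3 of 3 libraries, or by 2.24 without division by length.

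The small TIM chaperones escort hydrophobic proteins across the intermembrane space, in complexes of Timm9 with Timm10 and of Timm8 with Timm13. Timm13 was at 50.7, 62.74 and 59.74 TPM, Timm8b at 50.42, 50.89 and 49.86 TPM and Timm10b, which works at TIM22, at 36.55, 32.66 and 33.69 TPM. Timm9 was at 19.6, 20.02 and 18.28 TPM and Timm10 at 12.27, 13.97 and 10.4 TPM, without overlap. Timm8b exceeded Timm8a1, the mouse relative of the human deafness-dystonia gene (27.12, 23.93 and 24.7 TPM), by 0.97 ± 0.094 in 3 of 3 libraries, but lay below it by -0.28 without division by length. The share of 50-base words found in another gene was 41.0% for Timm8a1 and 0% for Timm8b. Timm8a2 was at 0.24, 0.05 and 0 TPM, from 4, 2 and 0 estimated reads.

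The differences of 12 of the 13 pairs had the same sign in 3 of 3 libraries. The pairs were chosen with earlier results of these data known, so this count only describes them and is no independent support. Flipping the signs of the 3 differences in all ways, an exact permutation test with both sides counted, returned p = 0.25 for each of these 12 (0.271 after Benjamini-Hochberg adjustment over 13 pairs). No smaller p exists for 3 libraries. The same exact test returned p = 0.75 for Tomm20 and Tomm70a. This test therefore cannot reach 0.05 for any pair, whatever the size of the difference.

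**Figure D3:**
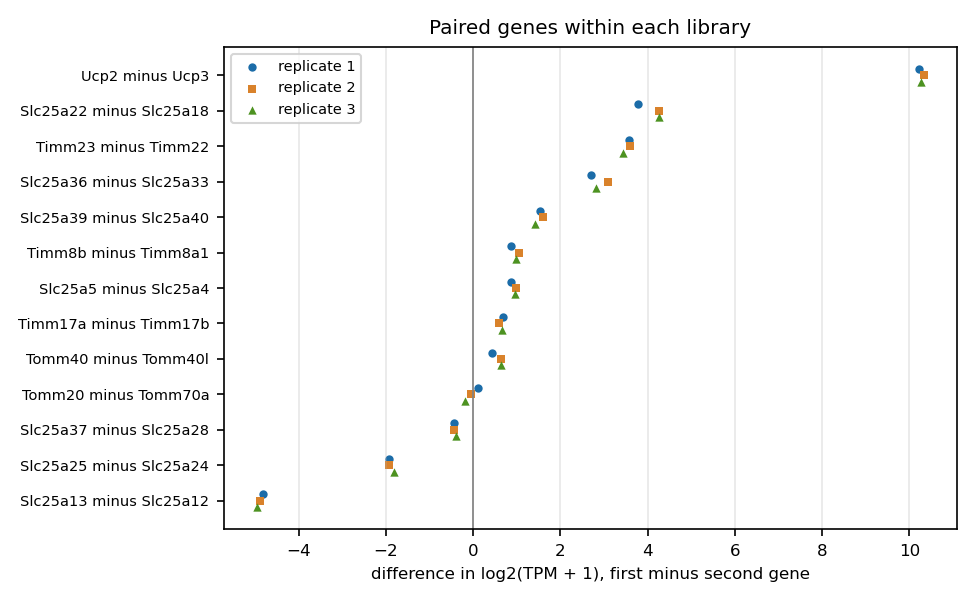
Difference in log2(TPM + 1) within each library for the 13 pairs, first minus second gene, with 1 point per library. The points of Tomm20 minus Tomm70a lie on both sides of 0, and those of the other 12 pairs on 1 side.

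A scale without transcript length also reordered the members. In CPM, reads scaled to library size but not divided by length, the first 4 places stayed with Ucp2, Slc25a3, Slc25a5 and Slc25a4 at 1006, 595, 392 and 211 CPM. Tomm20 took place 5 at 147 CPM, against place 18 by TPM, while Tomm22 took place 13 and Timm23 place 12.

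Adjacent members differed in level in the few cases found, and how often other neighbouring genes do so was not examined. Within 50000 bases of another member lay 5 pairs, a distance chosen after the values were seen, and each joined a detected gene to one with a mean below 1 TPM. Besides Ucp2 with Ucp3 and Slc25a24 with Slc25a54 (6566 bases apart), they were Slc25a23 with Slc25a41 (2056 bases), Slc25a29 with Slc25a47 (13956 bases) and Slc25a5 with Slc25a43 (18289 bases). The mean levels were 30.6 and 0.06 TPM for Slc25a23 and Slc25a41, 2.21 and 0.583 TPM for Slc25a29 and Slc25a47, and 657 and 0.723 TPM for Slc25a5 and Slc25a43.

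Where more than 1 promoter window was listed for a gene, as for 8 members, the first listed was used. Windows were found for 57 of 71 members (80.3%). The ratio of observed to expected CG pairs had a median of 0.328 (0.0384 to 0.826) in the 7 such members below 1 TPM in all libraries, and of 0.775 (0.302 to 1.11) in the 49 detected ones. Over all listed genes the medians were 0.403 for 3617 genes below 1 TPM in all libraries and 0.782 for 8793 detected genes, so the members followed the same order. Slc25a34 had the fewest CG pairs, 1 in its window, and Slc25a31 the highest ratio of the low members. Some windows lie inside the listed span of the gene, and ratios at other starts were not computed. Among the low members, that of Timm8a2 begins at 122034424, with the gene listed from 122027677. That of Slc25a47 begins at 108850879, with the gene listed from 108849833. Genes are not independent replicates, and no test was made.

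**Figure D4:**
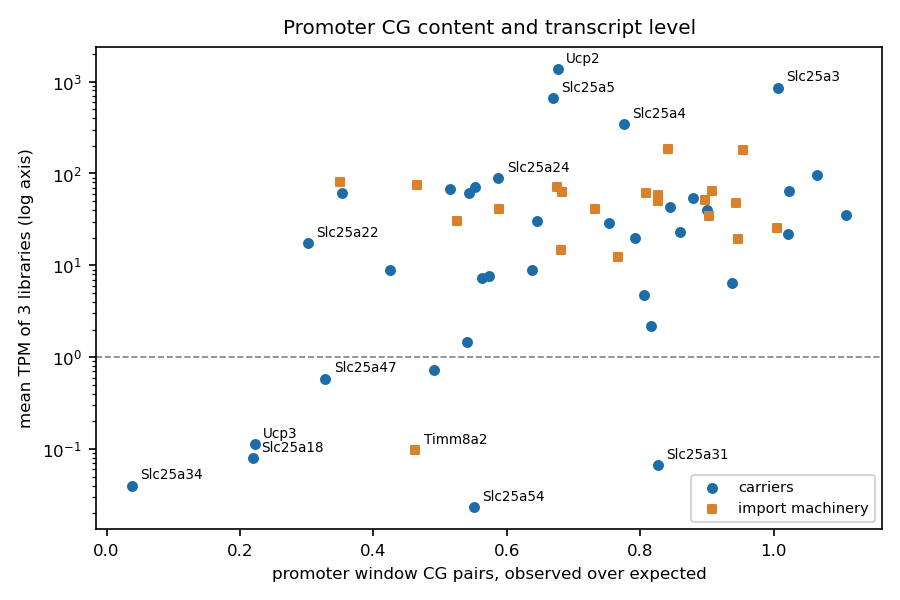
Mean TPM of 3 libraries on a log axis against the observed over expected ratio of CG pairs in the promoter window, with 1 point for each of 57 members. Of the 7 members below 1 TPM in all libraries, Slc25a31 stands apart with a ratio of 0.826.

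Short motifs of factors known to act at mitochondrial genes were searched on both strands of these windows, and matches of different motifs did not overlap in any member. The NRF1 core TGCGCA was in 7 of 57 windows (12.3%, against 12.7% of all listed genes), those of Slc25a3, Timm23, Tomm20, Timm13, Slc25a36, Timm8b and Slc25a31. The ETS motif CCGGAAG was in 16 windows (28.1%, against 15.6% of all listed genes). The GC box GGGCGG was in 40 (70.2%, against 58.0%) and CCAAT in 22 (38.6%, against 38.6%). Of the 6 members that averaged 100 TPM or more, 4 held the ETS motif, against 20.5% of the 1348 such genes with a window. In the same 6, the GC box was in 4 (66.7%, against 65.1%) and the NRF1 core in 2 (33.3%, against 16.5%). CCAAT was in 1 of them (16.7%, against 38.8%), and no motif was tested. Among detected genes only, the ETS motif was in 28.6% of member windows, against 20.4% of all, and the NRF1 core in 12.2%, against 15.6%. The GC box was then in 75.5%, against 65.4%, and CCAAT in 40.8%, against 39.8%. A match describes the letters only.

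The spread between libraries was small for most members. Among the 50 members that averaged 10 TPM or more, the coefficient of variation was 1.02% to 14.6% with a median of 4.21%, beside 3.87% for all 8262 such genes. The largest values were those of Timm10 (14.6%), Tomm7 (11.8%), Slc25a40 (11.6%), Timm13 (10.9%) and Tomm20 (9.72%). In the order by mean level, 17 of the 59 steps between neighbouring detected members separated all libraries of the higher gene from those of the lower, among them each of the first 7 steps.

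The spread was also set against counting error. The variance over the mean of depth-scaled reads, which is about 1 for counting error alone and grows with the number of reads at a given coefficient of variation, was 32.8 for Tomm20, 23.7 for Ucp2 and 12.99 for Slc25a3, against a median of 1.51 for the 61 members with at least 20 reads and of 1.34 for all 11274 such genes. The coefficients of variation of Ucp2 and Slc25a3 were 4.03% and 3.81%, below the members' median. Tomm20 had 3242.65, 2902.22 and 2627.17 estimated reads in replicates 1, 2 and 3, and 6.24% of its 50-base words occur in 12 other genes. This ratio exceeded 3 in 10 members (16.4%, against 24.3% of all such genes), which also included Slc25a4, Timm13, Tomm7, Slc25a12, Tomm40l, Slc25a10 and Timm50.

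**Figure D5:**
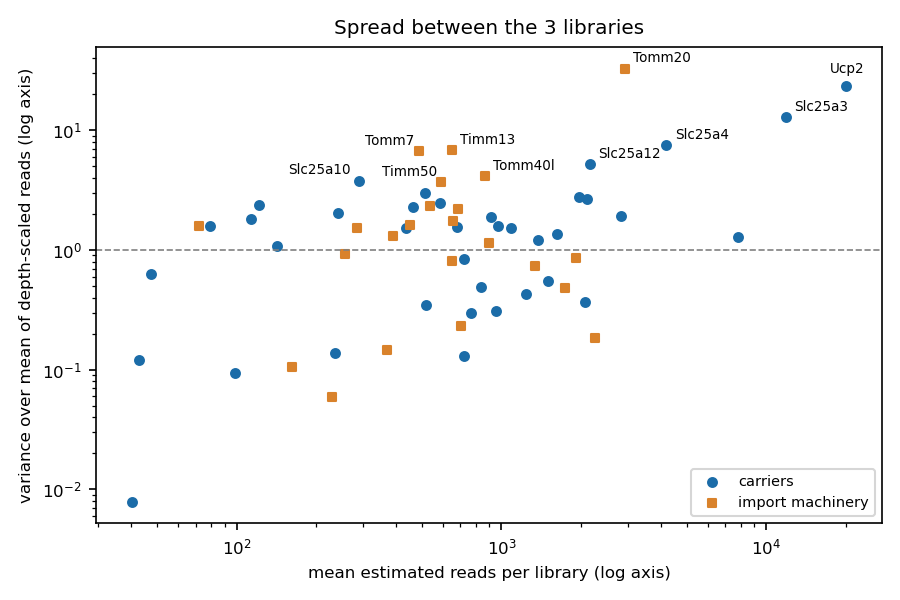
Variance over mean of depth-scaled estimated reads against mean reads per library, both on log axes, for the 61 members with at least 20 reads. Tomm20 and Ucp2 lie highest at 32.8 and 23.7, above the dashed line at 1 that counting error alone gives.

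Other genes of the same pathways, from lists given by function, were detected nearly in full, against 67.3% of all listed genes. Of 22 import, folding and processing genes outside the rule, 21 were detected. At the top stood the matrix chaperonins Hspe1 (236 ± 9.22 TPM) and Hspd1 (132 ± 2.16 TPM), the import motor Hspa9 (123 ± 3.43 TPM) and the processing peptidase Pmpca (74.2 ± 1.92 TPM). Immp2l, an inner membrane peptidase, was at 1.14, 1.73 and 0.96 TPM. Of 18 other mitochondrial membrane transport genes all 18 were detected, led by Tspo (343 ± 7.56 TPM) and the outer membrane channels Vdac2 (243 ± 15.2 TPM), Vdac1 (170 ± 10.9 TPM) and Vdac3 (157 ± 3.64 TPM).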

How the data were processed

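Per the labels' protocols, lung tissue was digested with Liberase and deoxyribonuclease, cells were sorted, RNA was extracted with phenol and chloroform, and fragmented mRNA was made into circularised libraries. Bowtie2, RSEM 1.3.1 and the build GRCm38.p6 are named in the submitters' processing notes, with no order, settings or gene annotation. Per the file headers, the authors deposited TPM, FPKM, estimated read counts and normalised read counts for each gene and library. The deposited estimated counts are expected counts that need not be whole, and the deposited normalised signal equalled that count rounded up and multiplied by 1.00144, 1 and 0.997 in replicates 1, 2 and 3, and was used only for this check.

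TPM was used for levels, and log values are log2(TPM + 1), which understates differences of low genes. Detected means 1 TPM or more in all 3 libraries. Paired genes were compared within libraries by an exact two-sided sign-flip permutation test. Members, lists and pairs were chosen with earlier results of these data known. Named were the 3 highest members of each role list, both genes of each pair, members below 1 TPM in all libraries and the 5 most variable with a mean of at least 10 TPM, and the remaining members are described besides. The values of 1 member are not reported here, although it is in the counts. Shared 50-base words and exon overlaps come from GENCODE M21 transcripts on GRCm38, and locations and promoter windows from RefSeq for GRCm38.p6, matched by Entrez ID for all 71 members. Windows were not used for 14 members, among them Slc25a2, Slc25a26, Slc25a27, Slc25a32, Slc25a35, Slc25a37, Slc25a41, Slc25a44, Slc25a46, Slc25a51, Timm21, Tomm40l and Tomm7. The computations used Python 3.11.15, numpy 2.4.6, pandas 2.3.3 and scipy 1.17.1. Of these computations, the variance over the mean was tried on simulated counts and the sign-flip test on fixed values. Alternatives were a pseudocount of 0.1, FPKM or CPM in place of TPM, other detection levels and leaving out each library.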

Additional observations from a re-analysis of the deposited data

How the results depend on the processing

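Of 78 alternatives for the 13 pairs, 72 kept the direction and 6 did not. Without division by length, Slc25a37 minus Slc25a28 became 1.22, Tomm40 minus Tomm40l -0.29, Timm17a minus Timm17b -0.26, Timm8b minus Timm8a1 -0.28 and Tomm20 minus Tomm70a 0.36, as transcripts of unequal length are then weighed by their length. Leaving out 1 library moved Tomm20 minus Tomm70a between -0.12 and 0.032, the value without replicate 3. The count of detected members lay between 56 at a level of 5 TPM and 62 at 0.5 TPM, and was 61 with at least 10 estimated reads. Members with a mean of at least 100 were 10 in CPM, where the same limit is on another scale, and 4 in FPKM. The median member level was 14.6 in FPKM and 29.4 in CPM, and leaving out 1 library moved its TPM value between 29.8 and 31.1. No fit with the replicate number as a block was possible, because the 3 libraries form 1 group and no groups share numbers. Levels below about 0.2 TPM rest on 4 or fewer estimated reads per library, which gives no order among those genes.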
